A study of Arabidopsis thaliana with 24 samples.

Results

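The 10 HD-ZIP II genes of Arabidopsis thaliana (ATHB2, HAT1, HAT2, HAT3, ATHB4, HAT22, HAT9, HAT14, ATHB17 and ATHB18) were followed in RNA from floral buds. They were chosen by their locus codes, and all 10 were found among the 32833 genes of the count table. The study asked how simulated shade alters gene expression in flower buds, and its table holds 24 libraries. The labels describe 8 groups of 3 samples. MB2 plants, which are ap1 cal mutants with the transgene pAP1:AP1-GR, gave 3 of the groups: one after 24 h in white light with added far-red (W+FR), one after 24 h in white light alone (W) and one at 0 h in W. In this line the AP1 promoter drives a steroid-inducible AP1, and all its plants received 2 µM dexamethasone 3 days before the shade began. Wild-type Col-0 plants gave the other 5 groups, in W+FR for 1, 3 and 24 h and in W at 0 and 24 h, and the labels mention no dexamethasone for them. Light carried a red to far-red ratio of 0.05 to 0.06 in W+FR and 3.0 in W, at 100 µmol per square metre and second of photosynthetically active radiation in days of 16 h light and 8 h dark. Each sample pooled the buds of at least 4 inflorescences, so a value is an average over flowers of several ages and organs.

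HD-ZIP II proteins join a homeodomain, which binds DNA, to a leucine zipper, through which they pair. Most carry a repression motif, and in seedlings several of their genes rise quickly when phytochrome senses the low red to far-red ratio cast by neighbouring plants. ATHB2, HAT1, HAT2, HAT3 and ATHB4 are the members best known from that response. HAT3 and ATHB4 are also known for setting the polarity of leaves and for the shape of the gynoecium tip, and both are known targets of REVOLUTA, a transcription factor of the HD-ZIP III family.

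The stretch of coding sequence below, 45 bases that open with the tryptophan-phenylalanine-glutamine-asparagine codons of the DNA-contacting helix, is shown because it is the part the 10 genes have in common. It was read from the spliced coding sequence of each gene in RefSeq's TAIR10.1 assembly. Capitals mark the bases that differ from ATHB2.
ATHB2: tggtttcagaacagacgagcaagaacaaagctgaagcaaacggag
HAT1: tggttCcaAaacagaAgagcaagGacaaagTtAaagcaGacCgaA
HAT2: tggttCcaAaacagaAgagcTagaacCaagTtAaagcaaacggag
HAT3: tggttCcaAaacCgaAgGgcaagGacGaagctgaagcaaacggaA
ATHB4: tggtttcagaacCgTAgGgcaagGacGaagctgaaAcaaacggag
HAT22: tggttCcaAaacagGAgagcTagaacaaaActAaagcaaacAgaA
HAT9: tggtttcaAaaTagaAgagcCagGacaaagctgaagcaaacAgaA
HAT14: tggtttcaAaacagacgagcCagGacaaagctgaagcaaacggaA
ATHB17: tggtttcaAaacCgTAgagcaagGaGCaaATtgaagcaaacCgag
ATHB18: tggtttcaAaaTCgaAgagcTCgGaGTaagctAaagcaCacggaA
HAT14 was closest to ATHB2 in this stretch with 91.1% of bases identical, and ATHB18 was farthest with 73.3%. Over the whole aligned coding sequence, identity between pairs ran between 63.8% and 81.2%. HAT22 and HAT9 were the closest pair at 81.2%, followed by HAT1 with HAT2 and HAT3 with ATHB4, both at 77.3%. The longest run of identical bases between transcripts was 38 bases, in HAT1 and HAT2, against 35 in HAT22 and HAT9 and 26 in HAT3 and ATHB4. A read lying within such a run could not be told apart between the relatives, and the sources at hand do not state the length of the reads.

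In TAIR10.1, ATHB2 (AT4G16780) lies at chr4:9449114-9450905 and HAT1 (AT4G17460) at chr4:9739518-9741234, both on the plus strand, each with 4 exons. HAT22 (AT4G37790), with 3 exons, lies on the same strand at chr4:17768042-17769676. HAT3 (AT3G60390) lies at chr3:22320580-22322661, ATHB4 (AT2G44910) at chr2:18517656-18519731 and HAT9 (AT2G22800) at chr2:9704632-9706217, all on the minus strand. HAT2 (AT5G47370) at chr5:19216271-19218007, HAT14 (AT5G06710) at chr5:2067941-2070566 and ATHB17 (AT2G01430) at chr2:187608-190369 are on the minus strand too. ATHB18 (AT1G70920) is on the plus strand at chr1:26735894-26738665. No annotated gene overlaps any of the 10, on either strand.

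The 1000 bases before each annotated start were searched on both strands for 3 short elements. The G-box, CACGTG, is a known site of phytochrome-interacting factors, and it was found before 2 of the 10 genes, HAT14 and ATHB17. Of all 27443 protein-coding genes, 14.8% held a G-box in such a window. The PBE-box, CACATG or CATGTG, which those factors also bind, was found before 4 members (HAT1, HAT2, HAT3 and HAT22), against 37.7% of all genes. The element CAATNATTG, which covers the paired half-sites that HD-ZIP I and HD-ZIP II proteins bind in vitro, was found before ATHB2 and HAT1, that is 2 of 10 members against 3.4% of all genes. A match of letters says nothing about occupancy, and no binding was measured. The sites of the least common element and of the G-box are shown with 25 flanking bases on each side, with the element in capitals. The ATHB2 site is at chr4:9448612-9448670 on the plus strand and begins 477 bases before the start, and the HAT1 site is at chr4:9738755-9738813 on the plus strand and begins 738 bases before it. The HAT14 site, at chr5:2070761-2070816 on the minus strand, begins 225 bases before the start, and the ATHB17 site, at chr2:190582-190637 on the minus strand, begins 243 bases before it.
ATHB2: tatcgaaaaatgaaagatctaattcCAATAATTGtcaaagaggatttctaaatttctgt
HAT1: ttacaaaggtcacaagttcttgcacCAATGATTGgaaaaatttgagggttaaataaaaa
HAT14: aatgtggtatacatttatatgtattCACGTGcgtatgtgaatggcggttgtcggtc
ATHB17: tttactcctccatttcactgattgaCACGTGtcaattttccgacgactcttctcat

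The table holds whole-number counts, and its 24 libraries held between 26287347 and 58151774 counts each. None of the 24 column names occurs in the sample labels, so no library could be tied to a genotype, light treatment or time. The libraries are therefore numbered 1 to 24 by their place in the table, which is only a name, and no comparison between the study's groups was made. By rank correlation over 19919 genes other than the 10, the libraries fell into a set of 15 (libraries 1 to 15) and a set of 9 (libraries 16 to 24). The largest distance within a set, 0.0428, was below the smallest between sets, 0.0782. Library 16 stood apart within the 9-library set, at a mean distance of 0.0202 from the others against 0.0098 for the next. Its summed level of 13 anther and tapetum markers was 1834 CPM (counts scaled to the same total in every library), below the 4036 to 6422 CPM of the other 8 libraries of its set, and its GRP17, a pollen-coat protein gene, was at 154 CPM against 617 to 2045 CPM. Results that rest on library 16 are given with and without it. All 13 anther and tapetum markers and all 14 carpel genes examined had a median of at least 1 CPM. So did 19701 of the 32833 genes in the table. The 5 leaf photosynthesis genes summed to 7190 to 14314 CPM. These values do not test the labelled tissue.

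All 10 genes were detected in every library, each with a median of at least 1 CPM. Levels are CPM of the library total, and between genes they were compared only per kilobase of transcript. The order by median CPM per kilobase was HAT22 at 31.9, HAT1 at 29.6, HAT2 at 20.1, HAT9 at 18.9, HAT3 at 9.29, ATHB2 at 6.55, ATHB4 at 5.15, HAT14 at 4.95, ATHB17 at 2.25 and ATHB18 at 1.44. HAT9 lay above HAT3 in 24 of 24 libraries with ranges that did not overlap. The other 8 neighbouring pairs in this order had overlapping ranges, and the upper gene lay above the lower one in 13 to 22 of 24 libraries.

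**Figure D1:**
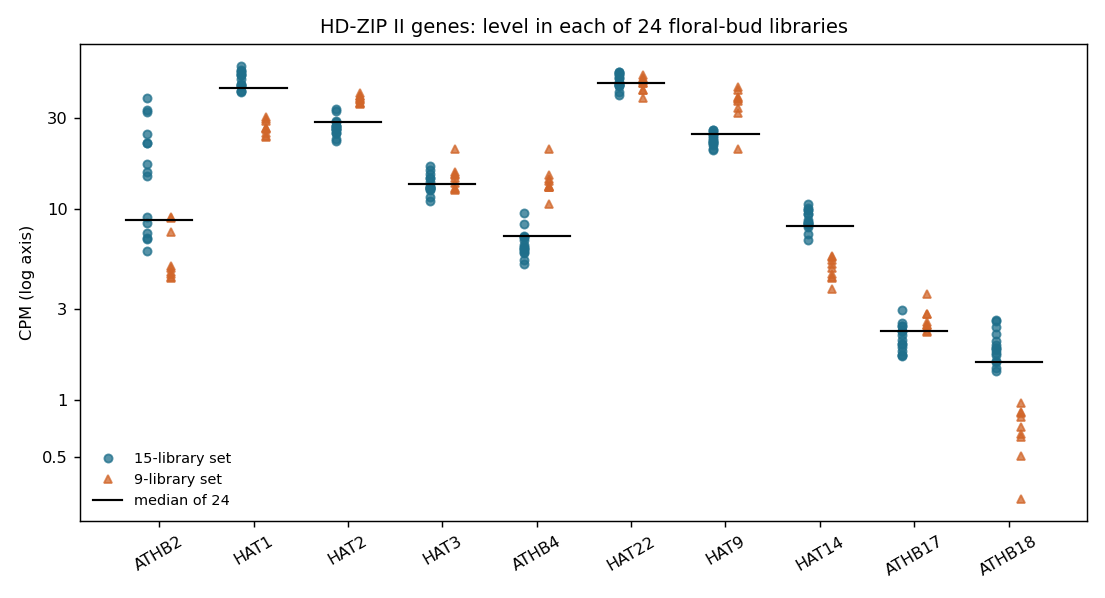
Level of each HD-ZIP II gene in each of 24 floral-bud libraries, in CPM on a log axis; circles are the 15-library set, triangles the 9-library set, and the black line is the median of all 24. HAT22 spans 38.1 to 52.4 CPM while ATHB2 spans 4.32 to 37.9 CPM.

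Among the members known from the seedling shade response, ATHB2 varied most. It ranged from 4.32 CPM in library 19, over a median of 8.73 CPM, to 37.9 CPM in library 4, an 8.78-fold span. With the highest and the lowest library set aside, the span was 7.54-fold. Its levels broke at one place: 15 libraries lay between 4.32 and 9.12 CPM and 9 between 14.9 and 37.9 CPM. The 9 upper libraries held 37.9 CPM in library 4, 33.0 in library 5, 32.1 in library 6, 24.8 in library 8, 22.1 in libraries 7 and 9, 17.1 in library 14, 15.5 in library 15 and 14.9 in library 13. The highest level rested on 1406 counts and the lowest on 190, with exact 95% Poisson intervals of 35.9 to 39.9 CPM and 3.73 to 4.98 CPM. In 20 of 24 libraries such an interval excluded the gene's median, the most for any of the 10 genes. These intervals cover counting error only.

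HAT1, a repressor known from brassinosteroid signalling, ranged from 23.8 CPM in library 23, over a median of 42.8 CPM, to 56.3 CPM in library 13. That is a 2.36-fold span. HAT2, its closest relative, known from auxin responses, spanned less, from 22.7 CPM in library 2 over 28.6 CPM to 40.3 CPM in library 21, or 1.78-fold. Their intervals excluded the gene's own median in 18 libraries for HAT1 and 19 for HAT2.

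HAT3 and ATHB4, the pair known for leaf and gynoecium polarity, both peaked in library 16. HAT3 ranged from 10.98 CPM in library 14, over 13.4 CPM, to 20.6 CPM in library 16, a 1.88-fold span that became 1.46-fold between the second highest and second lowest libraries. ATHB4 ranged from 5.17 CPM in library 10, over 7.18 CPM, to 20.7 CPM in library 16. Its 4.00-fold span became 2.78-fold between the second extremes. ATHB4 therefore varied more than HAT3 on either count of its span.

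HAT22, known from drought and abscisic acid responses, was the steadiest of the 10. It ranged from 38.1 CPM in library 16, over 45.9 CPM, to 52.4 CPM in library 3, a 1.37-fold span. In CPM, that span was narrower than that of all but 4.98% of genes with a median of at least 1 CPM. Under the TMM and median-ratio scalings described below it was 1.54-fold and 1.55-fold, still the narrowest of the 10. Its rank among all genes was not taken under those scalings. HAT9, its closest relative, ranged from 20.3 CPM in library 13, over 24.7 CPM, to 43.4 CPM in library 17, or 2.14-fold. The sister genes thus differed in level and in how far they moved.

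The 3 weakest members by level per kilobase were HAT14, ATHB17 and ATHB18. HAT14 ranged from 3.82 CPM in library 23, over 8.12 CPM, to 10.6 CPM in library 1. ATHB17, a transcriptional repressor known from abscisic acid responses of seedlings, ranged from 1.70 CPM in library 10, over 2.29 CPM, to 3.58 CPM in library 24, and its interval excluded its median in only 8 libraries. ATHB18 ranged from 0.300 CPM in library 16, over 1.58 CPM, to 2.63 CPM in library 14. Its 8.74-fold span rested on 10 counts in library 16, with an interval of 0.144 to 0.552 CPM, and was 5.07-fold between the second extremes.

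In all, 7 of the 10 genes had a highest library at least 2 times the lowest, and the exceptions were HAT2, HAT3 and HAT22. Of 19701 genes with a median of at least 1 CPM, 52.5% passed the same mark, and the median span was 2.25-fold in the family against 2.06-fold over those genes. Between second extremes 6 members passed, against 38.5% of all genes. A difference of about 2 genes among 10 is not read as a result, and it was not tested. The levels of 5 members (HAT1, HAT2, ATHB4, HAT14 and ATHB18) did not overlap between the 2 library sets, and neither did those of 39.1% of all 19701 genes.

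**Figure D2:**
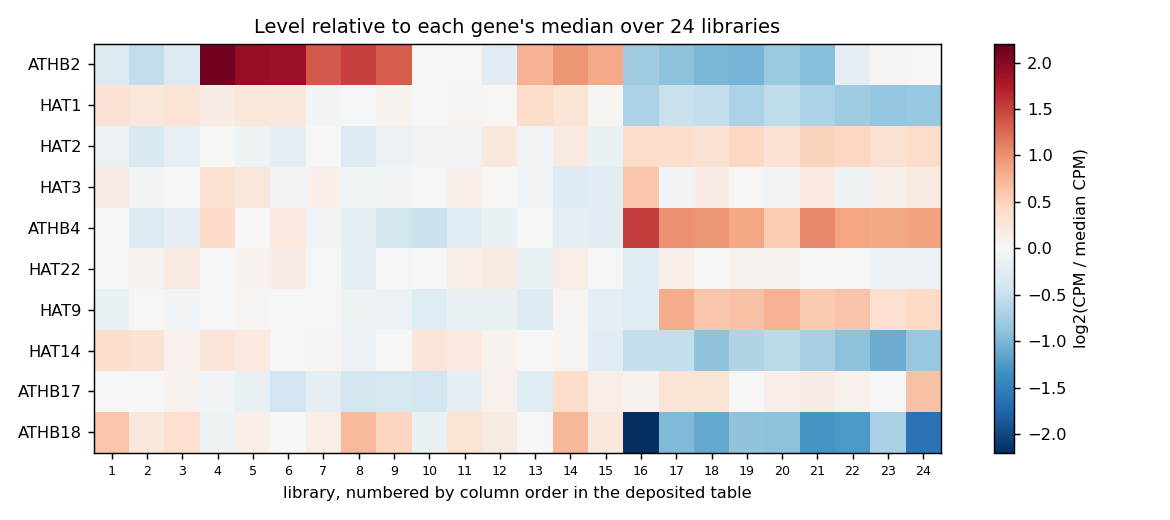
Level of each gene in each library as log2 of its CPM over its own median of 24 libraries, by library number. Red is above and blue below the median; ATHB2 is highest in libraries 4, 5 and 6, ATHB4 is highest and ATHB18 lowest in library 16.

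Co-variation was measured as Pearson's r of log2(CPM + 1) after centring each gene on the mean of its library set, and within each set. The libraries include groups of 3 that could not be identified and so are not independent, and each r is a description with no p. Of 45 pairs of members, 2 had a centred r above 0.5 and 2 below -0.5, and the median over pairs was 0.063. In 18 pairs r had opposite signs in the 2 sets. With all 24 libraries pooled and no centring, 23 pairs lay beyond 0.5 in either direction, and 22 of these came back within 0.5 after centring. By these values the HD-ZIP II genes did not move as one block within the sets. Of all 19691 genes, between 0.47% (with ATHB17) and 8.87% (with HAT9) lay above 0.5 with a member. Between 0.11% (with HAT2) and 6.72% (with HAT3) lay below -0.5. The few close pairs are therefore not read as a result particular to the family. No share over all genes was taken for opposite signs or for pooled values.

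**Figure D3:**
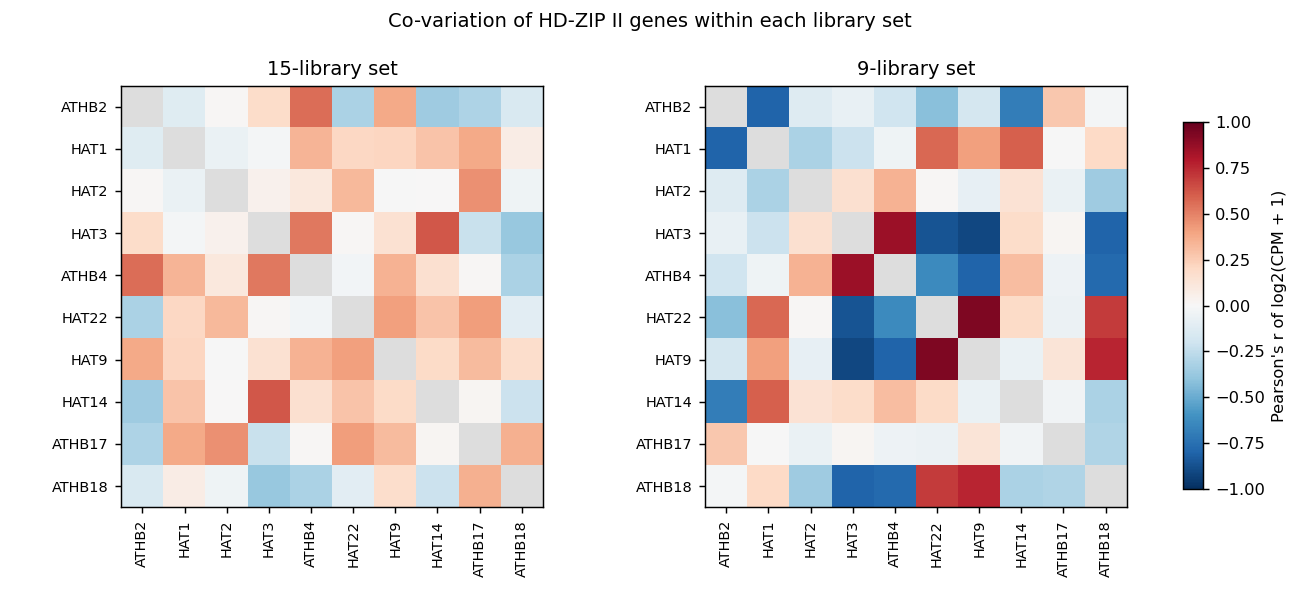
Pearson's r of log2(CPM + 1) between members, within the 15-library set (left) and the 9-library set (right); red is positive, blue negative, and the diagonal is grey. HAT22 with HAT9 has r = 0.409 on the left and 0.937 on the right, and HAT3 with HAT9 has 0.151 and -0.914.

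Both positive pairs were pairs of close relatives. HAT3 and ATHB4 had a centred r of 0.681 and a Spearman's rho of 0.501. Without library 16, where both peaked, r was 0.516. Within the 15-library set r was 0.524, and 0.177 without the 2 libraries farthest from the median of HAT3, so that there the relation rested on those libraries. Within the 9-library set r was 0.854, and 0.490 without library 16.

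HAT22 and HAT9 had a centred r of 0.649 and a rho of 0.605, and 0.570 without library 16. The relation was close in the 9-library set, with r = 0.937, and with r = 0.964 without library 16. It was looser in the 15-library set, with r = 0.409. HAT9 ran from 20.3 to 25.9 CPM there, and from 32.0 to 43.4 CPM in the 9-library set without library 16. Whether its range bears on r was not tested. The sequences these genes share, up to 35 bases in a run, can place a read on the wrong one of them, and its part in the result was not tested.

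The third pair of close relatives, HAT1 with HAT2, had a centred r of -0.108. The negative pairs were HAT3 with HAT9, at r = -0.553, and HAT3 with ATHB18, at r = -0.551. Without library 16 these became -0.122 and -0.382, so HAT3 with HAT9 depended on that library more than HAT3 with ATHB18 did. In the 9-library set without library 16, r was -0.659 for HAT3 with HAT9 and -0.412 for HAT3 with ATHB18, and in the 15-library set it was 0.151 and -0.376. ATHB2 and ATHB4, both shade-responsive in seedlings, had r = 0.348, with 0.557 in the 15-library set and -0.197 in the 9-library set.

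**Figure D4:**
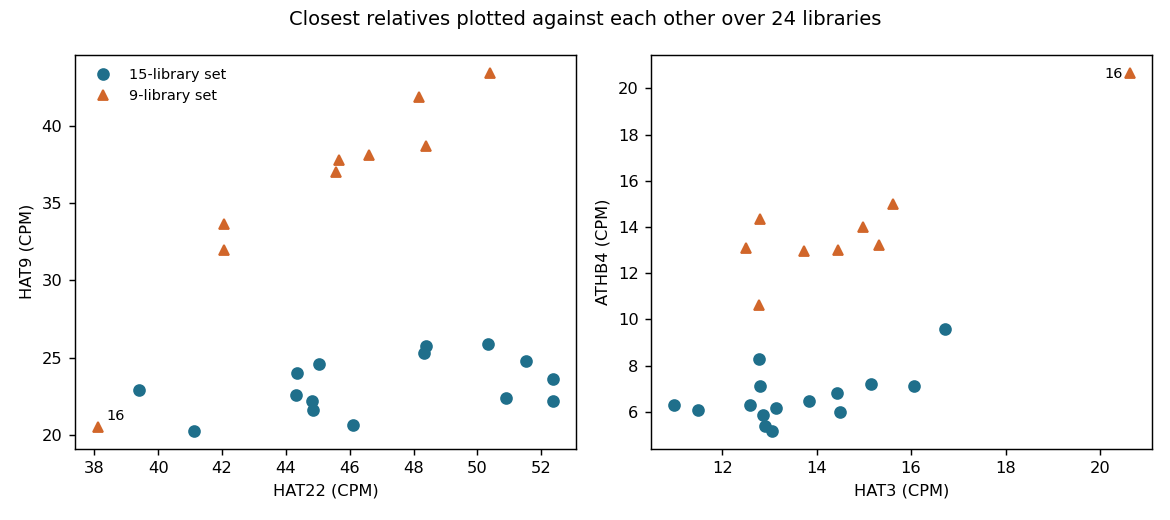
HAT9 against HAT22 (left) and ATHB4 against HAT3 (right), in CPM on linear axes, with 1 point a library; circles are the 15-library set, triangles the 9-library set, and library 16 is labelled. Library 16 has the lowest HAT22 (38.1 CPM) and the highest HAT3 and ATHB4 (20.6 and 20.7 CPM).

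ATHB2 moved with some of the genes known as early targets of low red to far-red light. Of 15 such genes, 12 had a median of at least 1 CPM, and their median centred r with ATHB2 was 0.419, against -0.071 over all 19691 genes. In all, 5 of the 12 lay above 0.5 and none below -0.5, against 3.57% and 6.23% of all genes. This list and those below were chosen with earlier results of these data known. Such counts are therefore descriptions and not independent support. The 5 were PIL1, PAR1, HFR1, PIF6 and FHL. PIF6 was placed in this list and not among the phytochrome and PIF genes described below. The lowest was CKX5, a cytokinin oxidase gene, at -0.401. PIL1, PAR1, HFR1 and PIF6 were above 0.5 in each library set. FHL had 0.608 in the 15-library set and -0.266 in the 9-library set. PAR2, YUC2, XTH15 and PKS4 were also positive in the 15-library set and negative in the 9-library set. IAA19 and CKX5 were negative in both sets, and ST2A was positive in both. IAA29, YUC8 and YUC9, an auxin response gene and auxin synthesis genes that rise in shaded seedlings, did not reach the minimum, with medians of 0.242, 0.840 and 0.098 CPM.

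PIL1, a bHLH protein gene that is a standard marker of shade in seedlings, ranged from 1.47 CPM in library 16, over 6.83 CPM, to 17.3 CPM in library 4, the library where ATHB2 was highest too. Its centred r with ATHB2 was 0.878 and rho 0.910. In each set the relation was close, with r = 0.910 in the 15-library set (0.880 without the 2 farthest libraries) and 0.906 in the 9-library set (0.815), and it was 0.893 without library 16. PAR1 and HFR1, which encode proteins that restrain the shade response, had r = 0.846 and 0.704 with ATHB2. PIF6 had 0.699.

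Within the 15-library set the values lay on both sides of the gap in ATHB2, so r was also taken on each side. PIL1 was higher where ATHB2 was higher on both, with r = 0.710 over the 9 libraries above the gap and 0.806 over the 6 below it. PAR1 did so only above, with r = 0.664 against -0.604 below, and HFR1 only below, with r = 0.031 above and 0.759 below. In the 9-library set ATHB2 was at 7.60 to 9.12 CPM in libraries 22, 23 and 24 and at 4.32 to 5.05 CPM in the other 6, and the first 3 had the highest PIL1 of that set as well.

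Among 7 phytochrome and PIF genes, all measured, the median r with ATHB2 was 0.118. PHYB, the main receptor of the red to far-red ratio in light-grown plants, was highest at 0.867, and PIF7, the transcription factor known as the main driver of shade growth in seedlings, was lowest at -0.685. PHYB ranged from 111.2 to 209.8 CPM, so it moved far less than ATHB2 did. Within the 15-library and 9-library sets, PHYB had r = 0.859 and 0.940 with ATHB2, and PIF7 had -0.658 and -0.899. In the larger set r with PHYB was 0.574 over the 9 libraries above the ATHB2 gap and -0.573 over the 6 below it, so the value for the set was not seen below the gap. In the smaller set rho was only 0.683 for PHYB and -0.683 for PIF7. There PHYB was at 194.6 to 209.8 CPM in libraries 22, 23 and 24, where ATHB2 was highest in that set. In libraries 16 to 21 PHYB was at 157.6 to 178.1 CPM.

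**Figure D5:**
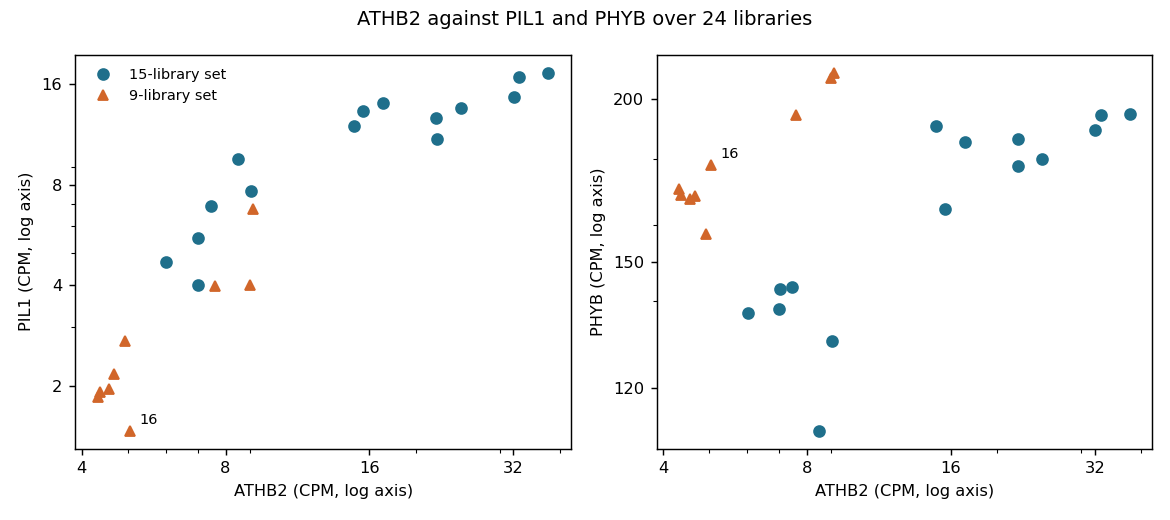
PIL1 (left) and PHYB (right) against ATHB2 over 24 libraries, in CPM on log axes; circles are the 15-library set, triangles the 9-library set, and library 16 is labelled. Within each set, r with ATHB2 is 0.910 and 0.906 for PIL1 and 0.859 and 0.940 for PHYB, but among the 6 circles below the gap in ATHB2 it is 0.806 for PIL1 and -0.573 for PHYB.

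The early shade genes were less close to most other members, a difference that was not tested. The median r over the same 12 genes was 0.042 for HAT1 and 0.092 for HAT2, near the medians over all genes of 0.054 and 0.153. HAT3 had a median of -0.201, from PAR2 at 0.251 to ST2A, a sulfotransferase gene, at -0.599, and ATHB4 had -0.089, against medians over all genes of 0.110 and 0.059. Without library 16 these became -0.061 for HAT3 and 0.012 for ATHB4, against 0.068 and 0.009 over all genes, and ATHB4 then had 2 of the 12 above 0.5, the highest being PAR1 at 0.536. HAT9 had a positive r with all 12, from PIF6 at 0.087 to XTH15, a cell-wall enzyme gene, at 0.727. Its median was 0.273, with 3 of 12 above 0.5 against 8.87% of all genes, and without library 16 it was 0.204, with 1 of 12 above 0.5 and 10 of 12 positive. HAT14 had a median of -0.201, and -0.097 without library 16. Each of these medians is over the same few genes, and none was tested.

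ATHB4 moved with most of the HD-ZIP III genes, of which PHB, PHV and REV are known to specify the upper side of lateral organs. Of the 5, all measured, 4 had r above 0.5 with ATHB4 (REV, PHB, ATHB15 and PHV, at 0.663, 0.657, 0.645 and 0.587), and ATHB8 had 0.113. Their median was 0.645, against 0.059 over all genes, of which 8.67% lay above 0.5. Without library 16, 3 of the 5 lay above 0.5 and the median was 0.566, against 0.009 over all genes, and r with REV was 0.629. REV and ATHB4 had r = 0.683 in the 15-library set and 0.821 in the 9-library set, the second falling to 0.313 without library 16. For HAT3 the median over the same genes was 0.348, with ATHB15 highest at 0.510 and ATHB8 lowest at 0.158, and the median was 0.221 without library 16. For ATHB2 it was 0.107, between ATHB8 at -0.355 and REV at 0.330.

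The 14 genes known for forming the apical carpel differed in direction from member to member. With HAT2 all 14 were positive, with and without library 16, at a median of 0.275 against 0.153 over all genes, from SPT at 0.027 to NGA4 at 0.509. Positive values with HAT2 were not particular to this list. They were seen for 12 of 13 anther markers, 5 of 5 HD-ZIP III genes and 9 of 12 early shade genes. The counts were 5 of 7 for phytochrome and PIF genes and 0 of 5 for leaf genes. The share of all genes with a positive r was not taken. HAT22 had 5 of 14 above 0.5, against 7.50% of all genes, and 2 without library 16. Their median r was -0.334 with ATHB2, from HEC2, a bHLH regulator of the transmitting tract, at -0.623 to ETT, an auxin response factor, at 0.464. With HAT3 it was -0.029, from HEC3 at -0.564 to NGA2, a style regulator, at 0.359. Without library 16 the median with HAT3 was -0.046, and HEC3 was at -0.312 and NGA2 at -0.026. The extremes were then STY1 at -0.343 and SPT at 0.432. ATHB4 had its highest r with ETT, at 0.682. HAT2 had r = 0.689 with the summed level of the 14 genes, with 0.677 in the 15-library set and 0.889 in the 9-library set.

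Markers of the anther moved with several members. HAT9 had r above 0.5 with 12 of the 13 markers, with a median of 0.715 against -0.006 over all genes, of which 8.87% lay above 0.5. Without library 16 the count was 2 of 13 and the median 0.239, against 0.095 and 7.07% over all genes. The summed level of the 13 markers ran from 1834 to 6422 CPM over all libraries. GRP17 and EXL4 weighed most in it, with medians of 1982 and 633 CPM. Against this sum HAT9 had a centred r of 0.730 and a rho of 0.434. That value was carried by 1 set and partly by 1 library: r was 0.986 in the 9-library set, 0.925 there without library 16, -0.237 in the 15-library set, and 0.237 over all 23 libraries without library 16. HAT22 had 0.613 with the same sum, and 0.488 without library 16.

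With all libraries in, HAT3 and ATHB4 ran the other way against the anther markers. ATHB4 had r = -0.689 with the marker sum and -0.477 without library 16, and 9 of the 13 markers lay below -0.5, against 6.48% of all genes. Without library 16 none of the 13 did, and they lay between -0.364 for GRP17 and 0.357 for ACOS5, a pollen-wall synthesis gene. For HAT3 the values with the sum were -0.564 and -0.183, and the single markers lay between -0.638 for EXL6, a pollen-coat lipase, and -0.304 for MS1, a tapetum regulator. Without library 16 they lay between -0.318 for EXL6 and 0.229 for MS1, so the common negative direction was seen only with that library included. ATHB2 had a median of -0.088, between AMS, a tapetum regulator, at -0.463 and A9, a tapetum-expressed gene, at 0.123. Without library 16 its median was -0.212, between AMS at -0.582 and ACOS5 at 0.152. With the marker sum ATHB2 had r = -0.283, and -0.517 without library 16. In the 15-library set that r was -0.471. In the 9-library set it was -0.214, and -0.830 without library 16. In bulk buds, fewer cells of a type and less RNA per cell cannot be told apart. The part of organ make-up in these values was not tested.

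With the 5 leaf photosynthesis genes, ATHB2 had a median r of -0.287, from RBCS2B, a Rubisco small subunit gene, at -0.383 to CAB1, a chlorophyll-binding protein gene, at 0.546. HAT3 had 0.311, between RCA, Rubisco activase, at 0.134 and CAB3 at 0.352. ATHB4 had r = 0.577 with their summed level, and 0.532 without library 16. That r was 0.683 in the larger library set and 0.416 in the smaller one, where it was -0.3 without library 16. Of the 5 single genes, 1 lay above 0.5 with ATHB4. For ATHB2 with CAB1, r was 0.614 in the larger set and -0.496 in the smaller.

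For each member the 3 genes of most similar pattern were named by centred r. The search covered the protein-coding genes with a median of at least 1 CPM, other than the members. These r values ran from 0.649 to 0.931 over the 30 genes. ATHB2 was nearest to SAUR22, a small auxin-up RNA gene, at 0.880, ahead of PIL1 and PHYB. HAT1 was nearest to DGD1, a galactolipid synthase gene, at 0.847, then to the aquaporin gene PIP2-1 and to PPOX1. HAT2 was nearest to MED23, a Mediator subunit gene, at 0.752, then to the mismatch repair gene MSH3 and to UBP19, a ubiquitin protease gene. UBP19 was close to HAT2 in the 15-library set only, with r = 0.858 there and -0.396 in the 9-library set.

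HAT3 was nearest to AT5G57720, AT4G10060 and AT3G12180, at 0.858, 0.842 and 0.825. The closest to ATHB4 were APUM6, an RNA-binding Pumilio gene, at 0.826, AT1G16220 and CYP734A1, which inactivates brassinosteroids. HAT22 was closest to the potassium transporter gene KUP11 at 0.831, to LACS8, an acyl-CoA synthetase gene, and to AT4G31860. HAT9 had the highest values of the family, with CHIB1, a chitinase gene, at 0.931, the aquaporin gene PIP2-4 at 0.924 and JAR1, which makes the active jasmonate conjugate, at 0.923. Without library 16 these became 0.780, 0.820 and 0.758.

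HAT14 was nearest to AT2G17320 at 0.826, then to the transporter gene UMAMIT45 and the GRAS-family gene SCL1. ATHB17 had the loosest neighbours, with CAT7, an amino acid transporter gene, at 0.697, WRKY74 at 0.656 and AT1G67760 at 0.649. For ATHB18 they were PFA-DSP1, a phosphatase gene, at 0.739, RRA2, an arabinosyltransferase gene, and AT1G28375. ATHB17 and ATHB18, with the fewest counts of the family, also had the widest counting error behind each value. No 2 members shared a nearest gene.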

How the data were processed

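RNA from floral buds was sequenced in 24 libraries. The deposited table gives raw read counts per gene in whole numbers, with no normalization by the authors stated. The submitters' processing notes name STAR 2.5.3a, RSEM 1.3.0 and TAIR10, without saying what each did. None of the 24 columns of values could be mapped to a sample, so no test between groups was run. Counts were divided by the column total (CPM), with TMM (edgeR 4.0.16) and median-ratio factors (DESeq2 1.42.0) as alternatives (R 4.3.3). Columns were clustered on genes of mean CPM of at least 1 other than the members (1 minus Spearman's rho, average linkage, 2 clusters), and correlations used log2(CPM + 1). Genes entered the comparisons at a median CPM of at least 1. Named genes are the 10 members, the 3 nearest protein-coding genes of each, and, for ATHB2 and HAT3, the gene of highest and of lowest r in each list; others are named where a count was small or library 16 bore on it, after their values were seen. The members and lists were chosen with earlier results of these data known. The likeness search was run on simulated counts in which some genes were made to follow ATHB2 and the others had no pattern. That checks the code only and not how the search performs on these data. Poisson intervals are exact, at 95%. Sequences and gene models are from RefSeq TAIR10.1.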

Additional observations from a re-analysis of the deposited data

How the results depend on the processing

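No paired analysis was possible because no column could be tied to a sample or a replicate number. Median levels kept within the spread between libraries under TMM and median-ratio scaling, which moved libraries by -0.10 to 0.20 and by -0.13 to 0.23 on the log2 scale. The count of 7 members past a 2-fold span was 7 under TMM and without library 16 (chosen after seeing the data) and 6 between second extremes. The span of ATHB2 was 7.54 between second extremes against 8.78. That of HAT22 was 1.54 under TMM and 1.55 under median-ratio scaling, against 1.37. For HAT3 with ATHB4, r was 0.681, against 0.501 as Spearman's rho, 0.532 with all libraries pooled, and 0.516 to 0.745 with each library left out in turn. For HAT22 with HAT9 it was 0.649, against 0.191 pooled. For HAT9 with the anther sum it was 0.730, against 0.434 as rho, 0.571 pooled, and 0.237 to 0.799 with a library left out. Pooling turned ATHB2 with PAR1 to -0.124 from 0.846 and ATHB2 with ATHB4 to -0.495 from 0.348, and moved ATHB2 with PHYB to 0.416 from 0.867 and ATHB2 with PIF7 to -0.088 from -0.685. On each side of the ATHB2 gap within the 15-library set, a split chosen after seeing the data, r with ATHB2 was 0.710 above and 0.806 below for PIL1 (0.878 in all), 0.574 and -0.573 for PHYB (0.867), 0.664 and -0.604 for PAR1, and 0.031 and 0.759 for HFR1 (0.704). Over all 45 pairs, pooling changed the sign in 22, TMM in 5, rho in 1 and either other pseudocount in 1. All 30 nearest genes stayed in the top 10 at a pseudocount of 5. The causes of these changes were not tested. Depth limits ATHB18 and ATHB17 most, with 1310 and 2130 counts in all.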

Other observations

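The values of some members fell into separate clusters of libraries, which the labels put in no group. HAT1 had no library between 30.4 and 40.9 CPM: libraries 16 to 24 were below (23.8 to 30.4 CPM) and libraries 1 to 15 above (40.9 to 56.3 CPM). HAT14 broke between 5.65 and 6.89 CPM, with the same 9 libraries below. ATHB18 lay at 0.300 to 0.955 CPM in those 9 libraries and at 1.42 to 2.63 CPM in the other 15. HAT2 and ATHB4 were placed the other way, HAT2 at 35.4 to 40.3 CPM in the 9 libraries and 22.7 to 33.4 CPM in the 15, ATHB4 at 10.6 to 20.7 CPM in the 9 and 5.17 to 9.57 CPM in the 15. These 5 genes did not overlap between the sets, which were themselves drawn from the other genes of the table, and no test was run. Of all 19701 genes with a median of at least 1 CPM, 39.1% did not overlap either, so 5 of 10 is not read as a result about the family. HAT9 broke between 25.9 and 32.0 CPM, with libraries 17 to 24 above and library 16, at 20.5 CPM, among the lower 16. ATHB2, HAT3, HAT22 and ATHB17 overlapped between the sets.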
